A study of Mus musculus with 12 samples.

Results

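The genes described here are the hypoxia-inducible factor (HIF) genes and a set of their best known targets, 10 genes chosen by symbol: Hif1a, Epas1, Egln1, Egln3, Vegfa, Bnip3, Ankrd37, Adm, Ddit4 and Car12. All 10 were found among the 57010 Ensembl mouse gene IDs counted in each library, and 8 of them had counts. Hif1a and Adm were listed at 0 in all 12 libraries, so the pathway is described without the message of its main factor. The RNA came from mouse chondrocytes in primary culture, which make the matrix of cartilage, and all 12 libraries are labelled with a wild-type genotype. The 3 groups have 4 libraries each: Control, WT (transfected with a wild-type plasmid, read here as wild-type SIRT5) and SIRT5F101L (transfected with a plasmid for SIRT5 that carries the F101L change). SIRT5 is a sirtuin of mitochondria and cytosol that takes malonyl, succinyl and glutaryl groups off lysines. What the Control cells received, the age and strain of the mice and the promoter of the plasmids are not given in the sources used here. Nothing states that the 4 libraries of a group came from separate animals or cultures, so p-values measure the spread between these libraries, which may be technical.

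HIFs are pairs of an oxygen-regulated alpha subunit (HIF-1 alpha from Hif1a, HIF-2 alpha from Epas1) and a stable partner, ARNT. In oxygen, prolyl hydroxylases (Egln1, Egln2 and Egln3 encode PHD2, PHD1 and PHD3) mark the alpha subunit, and the VHL protein then directs its destruction. In low oxygen the subunit persists and raises transcription of genes for glycolysis, blood vessel growth, pH control, mitophagy and the hydroxylases themselves, which closes a feedback loop. Cartilage has no vessels, and its cells depend on HIF-1 alpha for survival and matrix production, whereas HIF-2 alpha has been described there as a driver of matrix-degrading genes. The alpha subunits are controlled largely at the level of protein, which these counts do not measure.

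The core of the DNA element bound by HIFs reads ACGTG or GCGTG. The 250 bases upstream of RefSeq transcript starts (build GRCm38.p6) were searched for both words on both strands, with overlapping matches counted. Of the 10 genes, 9 were in the promoter table, and Epas1 was not. At least 1 match lay in the first listed window of 7 of these 9, where 38.6% of all 32851 windows of that length held one (16.6% for ACGTG and 28.2% for GCGTG). First windows of the 9 held from 50.8% (Egln3) to 86% (Egln1) G and C, and the share over all windows is not matched for this. The 10 genes were also chosen as known HIF genes and targets, so an enrichment was not tested. The 4 windows printed next show the range from many matches to none among genes whose levels are described further on. Capitals mark the matches on either strand, and each is written 5′ to 3′ on the strand of its gene. They are Bnip3 at chr7:138909507-138909756 (minus strand), Egln3 at chr12:54203875-54204124 (minus strand), Vegfa at chr17:46032378-46032627 (minus strand, the first of its 2 listed windows) and Car12 at chr9:66713436-66713685 (plus strand).
Bnip3: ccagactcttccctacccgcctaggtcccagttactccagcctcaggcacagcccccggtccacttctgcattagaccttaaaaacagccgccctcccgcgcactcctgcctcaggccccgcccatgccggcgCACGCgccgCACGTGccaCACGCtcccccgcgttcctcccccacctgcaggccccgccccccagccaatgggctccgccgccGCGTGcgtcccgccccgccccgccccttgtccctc
Egln3: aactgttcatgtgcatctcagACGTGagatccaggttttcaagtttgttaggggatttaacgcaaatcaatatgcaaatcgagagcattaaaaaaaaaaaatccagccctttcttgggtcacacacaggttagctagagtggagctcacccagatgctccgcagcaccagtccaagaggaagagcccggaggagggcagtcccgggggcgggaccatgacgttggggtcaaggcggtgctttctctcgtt
Vegfa: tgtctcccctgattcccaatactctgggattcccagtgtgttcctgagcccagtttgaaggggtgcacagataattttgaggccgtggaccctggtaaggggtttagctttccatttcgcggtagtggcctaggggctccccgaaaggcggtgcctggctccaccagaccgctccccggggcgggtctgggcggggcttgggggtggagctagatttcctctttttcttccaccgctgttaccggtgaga
Car12: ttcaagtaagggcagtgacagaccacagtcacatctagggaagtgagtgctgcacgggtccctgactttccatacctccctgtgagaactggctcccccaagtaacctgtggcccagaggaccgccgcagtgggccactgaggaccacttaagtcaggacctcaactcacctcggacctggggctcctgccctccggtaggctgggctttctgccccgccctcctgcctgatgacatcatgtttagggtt

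The Bnip3 window held 5 overlapping or separate matches, the Egln3 window 1, and the Vegfa and Car12 windows 0, while the other Vegfa window held 2. Egln1 had 2 matches, Ddit4 2, Ankrd37 4, Hif1a 3 and Adm 2. A match describes only these letters in this window, and HIF elements are known to lie further away, in introns and distal enhancers, too.

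Library totals ran from 15095357 to 24242139 counts. Levels are CPM (counts scaled to a common library size) after TMM scaling, and 1 count was worth 0.0413 to 0.0662 CPM before scaling. The gene named on the plasmids, Sirt5, had 9 to 16 counts in Control, 1 to 9 in WT and 9 to 19 in SIRT5F101L libraries, and no difference passed the test (edgeR adjusted p 0.143 to 0.954). SIRT5F101L replicate 1 stood apart: its log2 CPM correlated at 0.985 on average with its own group and at 0.990 with WT libraries, across genes. Values without it are given beside the calls of the named HIF genes and the list counts that it changes. Of 8 chondrocyte markers, summed levels were 9035 to 11337 CPM in Control, 2812 to 2927 in WT and 2293 to 2537 in SIRT5F101L libraries. That sum is mostly Col2a1 and Comp. Of the 8, 6 fell in each plasmid group, while Acan and Hapln1 rose in WT and Hapln1 rose in SIRT5F101L libraries. Over all genes tested, 28.1% fell and 28.7% rose in WT, and 30.7% fell and 30.0% rose in SIRT5F101L libraries. These shares stand beside each marker tally given here. Summed macrophage and leukocyte markers, of which Itgam was listed at 0 and 7 were tested, reached 169 to 202, 130 to 150 and 140 to 179 CPM. Here 6 of the 7 fell in each plasmid group, among them Lyz2 (log2 fold changes -1.05 and -1.03) and Adgre1 (-2.03 and -1.89), while Cd14 rose (2.05 and 2.27) and holds the sum up. Of the 7 endothelial markers 5 were tested, and Vwf alone rose in each plasmid group while the other 4 did not pass. They summed to 6.85 to 7.56, 7.41 to 10.01 and 8.25 to 10.03 CPM, the 5 osteoblast markers, of which Phex was listed at 0, to 14.8 to 22.3, 1.16 to 2.05 and 1.13 to 1.88 CPM, and the 5 fibroblast and perivascular markers to 461 to 553, 829 to 920 and 789 to 901 CPM. Of these last 5, Cd34, Pdgfra and Cspg4 rose in both plasmid groups, and Rgs5 rose in SIRT5F101L libraries and did not pass in WT. Dpt passed the expression filter only through Control, so its lower level in the plasmid groups was fixed by the filter and is not counted. Of the 2 osteoblast markers tested, Sp7 fell in each plasmid group. The other, Ibsp, makes up most of the Control sum (mean 14.7 CPM) and was at most 0.360 CPM in plasmid libraries. Ibsp too passed the filter only through Control, so its lower level is not counted. The part of these shifts in the results below was not tested, and in bulk RNA fewer cells of a type and less RNA per cell cannot be told apart.

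The zeros of Hif1a and Adm were examined first. All 2414 IDs of the X chromosome and all 1547 of the Y chromosome, as annotated in GENCODE M21, were also listed at 0, as was the autosomal gene B2m, which most cells use. In that annotation all exon sequence of Hif1a lies within the span of Gm15283 on the opposite strand, and all exon sequence of Adm, the vasodilator adrenomedullin, lies within the span of Gm28863, also on the opposite strand. B2m and Col10a1 lie in the same way inside Patl2 and Nt5dc1. Of 1102 autosomal protein-coding genes whose exons lie wholly within another gene's span, 1092 (99.1%) were listed at 0. The share was 20.6% of the 11379 genes with no such overlap and 5.88% of the 8235 with partial overlap. The overlapping genes themselves held 1346 counts (Gm15283) and 258 counts (Gm28863) over the 12 libraries. This overlap was computed after the zeros were seen, from a GRCm38 annotation, whereas the submitters' processing notes name GRCm39. No level is therefore given for Hif1a or Adm, and a 0 here does not say that they were not expressed. The same holds for the markers Phex and Itgam. Phex lies on the X chromosome, and 99.1% of Itgam exon sequence lies within the span of Gm49368.

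**Figure D1:**
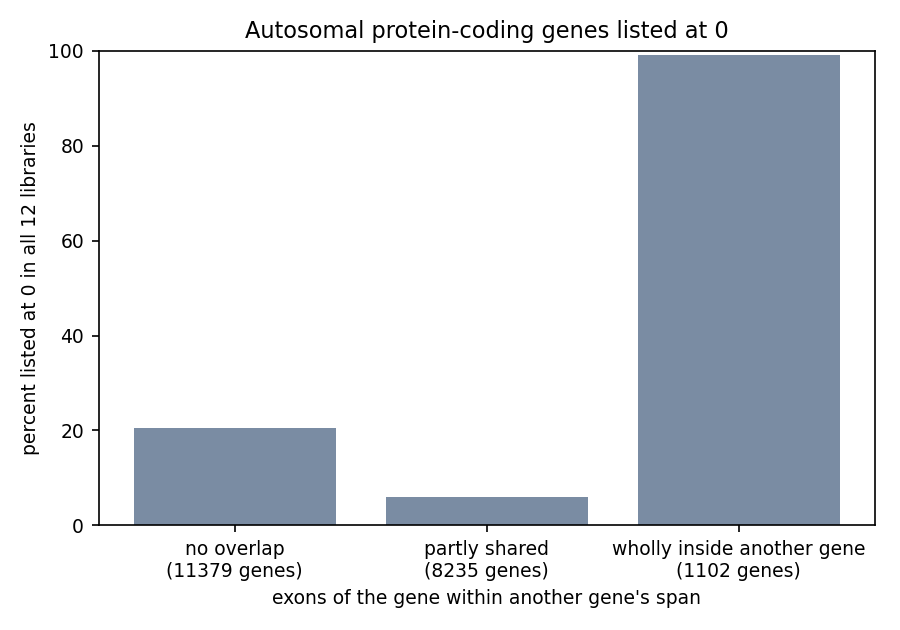
Percent of autosomal protein-coding genes listed at 0 in all 12 libraries (y axis), by how much of their exon sequence lies within the span of another gene in GENCODE M21 (x axis, with the number of genes). The bars stand at 20.6%, 5.88% and 99.1%, and Hif1a and Adm belong to the last class.

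Partial overlap touches 2 other genes of the set. Other genes' spans cover 57.9% of the exon sequence of Bnip3 and 46.0% of that of Ankrd37, so their counts are uncertain. For Epas1, Egln1, Egln3, Vegfa, Ddit4 and Car12 the share of exon sequence was 0%.

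All 8 genes with counts passed edgeR's expression filter. Against Control, 7 of the 8 passed the test in WT libraries, 6 higher and 1 lower. Of all 14253 genes tested, 56.8% passed in that comparison, 28.7% higher and 28.1% lower. In SIRT5F101L libraries 6 of the 8 passed, 5 higher and 1 lower, against 60.7% of all genes tested, 30.0% higher and 30.7% lower. Both counts stand beside a background in which most genes tested were called, so they are no result about these genes as a set. The median log2 fold change of the 8 genes was 0.41 in WT and 0.36 in SIRT5F101L libraries, where the median over all genes was -0.01 and -0.02. Between the plasmids none of the 8 passed edgeR's test, which called 6 of all genes (0.0421%), and 1 of the 8 genes had an unadjusted p under 0.05, as had 1701 of all 14253 genes, which is near the same share. Without SIRT5F101L replicate 1, 2213 of the 14528 genes tested in that fit were called, Ddit4 among them. The 2 comparisons with Control share the same 4 Control libraries, so their likeness is not independent evidence.

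**Figure D2:**
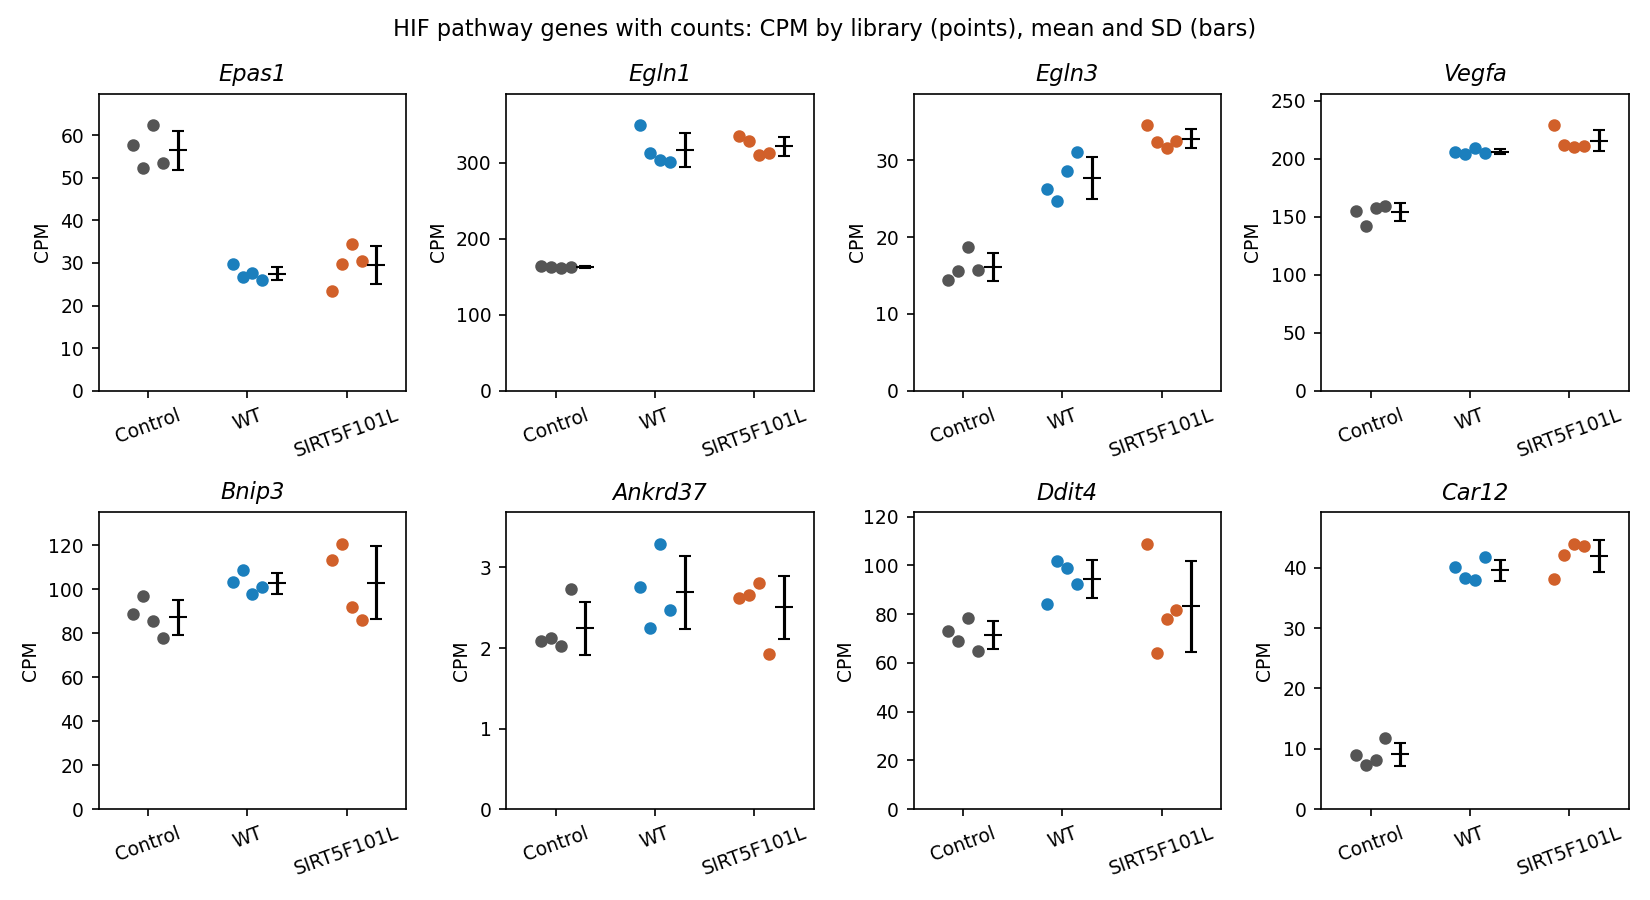
CPM (y axis, linear from 0) of the 8 HIF genes with counts in each of the 12 libraries, by group (x axis). Points are libraries and bars the mean and SD over 4. Epas1 is lower in both plasmid groups, and Egln1, Egln3, Vegfa and Car12 are higher, with no overlap with Control.

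Epas1, the alpha subunit gene that could be measured, fell in both plasmid groups. It stood at 57.8, 52.3, 62.3 and 53.4 CPM in Control replicates 1 to 4, at 29.7, 26.7, 27.6 and 26.0 CPM in WT, and at 23.5, 29.7, 34.5 and 30.6 CPM in SIRT5F101L. The lowest Control library lay above every plasmid library. Its level was 2.05-fold lower in WT (log2 fold change -1.04, SE 0.10, edgeR adjusted p 1.42e-08) and 1.91-fold lower in SIRT5F101L libraries (-0.93, SE 0.10, edgeR adjusted p 5.88e-08). The log2 difference between the plasmids was 0.11 (SE 0.10, edgeR adjusted p 0.669), and their libraries overlapped.

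ARNT, the common partner, did not follow Epas1. Arnt averaged 78.2 ± 4.44 CPM (SD, n = 4) in Control, 78.0 ± 5.02 in WT and 84.8 ± 8.38 in SIRT5F101L libraries, and did not pass the test in either comparison with Control (edgeR adjusted p 0.969 and 0.175). Without SIRT5F101L replicate 1, Arnt was higher in SIRT5F101L libraries than in Control by 0.18 on the log2 scale (edgeR adjusted p 0.0143) and than in WT by 0.19 (edgeR adjusted p 0.0470). With all 12 libraries and a correction for transcript length, the log2 fold change of Arnt in SIRT5F101L libraries against Control was -0.01, against 0.12 without that correction. Hif3a, which encodes another alpha subunit, had at most 7 counts in a library and was not tested.

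The genes most like Epas1 across the 12 libraries, among 9787 genes averaging 5 CPM or more, were Sesn3 (Pearson r of log2 CPM 0.986), Aff3 (0.985) and Il6st (0.984). Il6st encodes gp130, the shared receptor of interleukin-6 family cytokines, and its mean level was 647 ± 42.9 CPM in Control, 392 ± 20.9 in WT and 429 ± 33.7 in SIRT5F101L libraries (SD, n = 4). These correlations mostly follow the division between Control and plasmid libraries and carry no p.

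Of the prolyl hydroxylases, the hypoxia-inducible Egln1 and Egln3 rose and Egln2 did not pass the test. Egln1 stood at 164, 162, 162 and 163 CPM in Control, at 349, 312, 303 and 300 CPM in WT, and at 335, 329, 310 and 313 CPM in SIRT5F101L. Every plasmid library lay far above the Control libraries. Over 4 libraries the Control coefficient of variation was 0.538%, where the fit's common value over all genes was 9.18%. So small a value from 4 libraries is not taken as a tightly held level. The rise was 1.94-fold in WT (log2 fold change 0.96, SE 0.06, edgeR adjusted p 1.94e-11) and 1.97-fold in SIRT5F101L libraries (0.98, SE 0.06, edgeR adjusted p 1.24e-11).

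Egln3 was at 14.4, 15.6, 18.7 and 15.7 CPM in Control, at 26.3, 24.7, 28.6 and 31.0 CPM in WT, and at 34.5, 32.4, 31.6 and 32.5 CPM in SIRT5F101L. It rose 1.72-fold in WT (log2 fold change 0.78, SE 0.09, edgeR adjusted p 4.75e-07) and 2.03-fold in SIRT5F101L libraries (1.02, SE 0.09, edgeR adjusted p 8.00e-09). All 4 SIRT5F101L libraries lay above all 4 WT libraries. The log2 difference between the plasmids was 0.24 (SE 0.09), with an unadjusted p of 0.0128 and an edgeR adjusted p of 0.363, so it did not pass. Groups did not overlap for 4.02% of all genes tested in that comparison.

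Egln2, which encodes the hydroxylase not known for induction by hypoxia, averaged 74.2 ± 5.86 CPM in Control, 72.4 ± 3.76 in WT and 65.6 ± 7.29 in SIRT5F101L libraries (SD, n = 4). Its log2 fold changes against Control were -0.03 (edgeR adjusted p 0.728) and -0.18 (edgeR adjusted p 0.0561). The second passed without Control replicate 2 (-0.22, edgeR adjusted p 0.0309) and with upper-quartile scaling (-0.22, edgeR adjusted p 0.0162). Without SIRT5F101L replicate 1 it was -0.25 (edgeR adjusted p 0.00249), and the difference from WT was -0.21 (edgeR adjusted p 0.0347). Hif1an, the asparaginyl hydroxylase FIH, had log2 fold changes of 0.03 and -0.10 (edgeR adjusted p 0.762 and 0.308), and the second passed only with a correction for transcript length (-0.19, edgeR adjusted p 0.0333). Vhl, which recognises the hydroxylated alpha subunit, rose from 32.1 ± 2.86 CPM to 41.5 ± 2.11 in WT and 41.9 ± 4.83 in SIRT5F101L libraries (log2 fold changes 0.37 and 0.39, SE 0.09 for each, edgeR adjusted p 0.00108 and 0.000664).

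**Figure D3:**
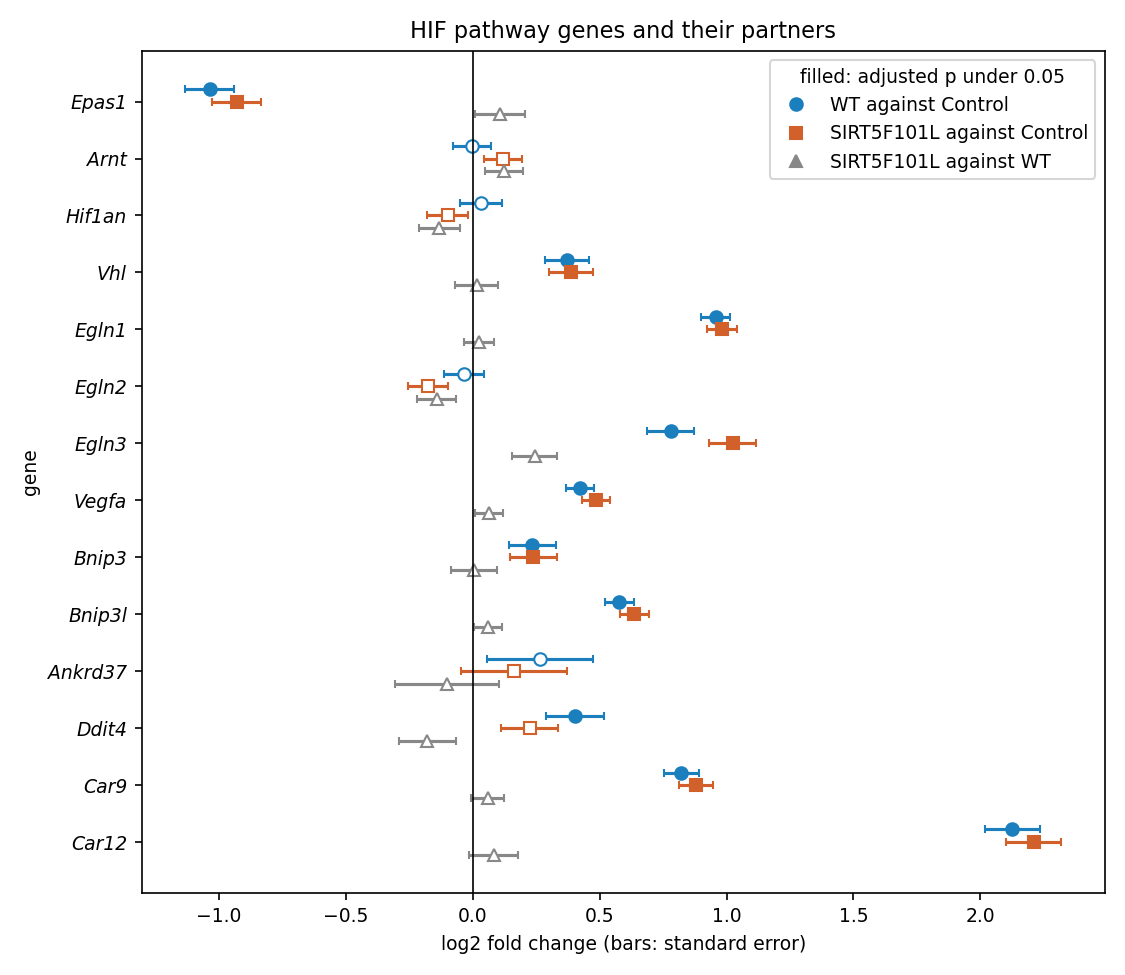
Log2 fold change (x axis) with its standard error (bars) for 8 HIF genes and their partners and paralogs Arnt, Hif1an, Vhl, Egln2, Bnip3l and Car9 (y axis), in the 3 comparisons. Filled markers passed edgeR's test, and no marker of the comparison between the plasmids is filled.

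Among the targets, Car12 had the largest change of the 8 genes in both plasmid groups. It encodes a membrane carbonic anhydrase that acts in pH control. It stood at 8.95, 7.40, 8.20 and 11.7 CPM in Control, at 40.2, 38.3, 38.0 and 41.8 CPM in WT, and at 38.1, 42.0, 44.0 and 43.6 CPM in SIRT5F101L. The lowest plasmid library lay far above the highest Control library.

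Car12 rose 4.37-fold in WT (log2 fold change 2.13, SE 0.11, edgeR adjusted p 1.12e-12) and 4.63-fold in SIRT5F101L libraries (2.21, SE 0.11, edgeR adjusted p 5.46e-13). Its change exceeded in size that of most genes: 4.81% and 4.72% of all genes tested had a larger absolute log2 fold change. Its paralog Car9, a classical marker of hypoxia, rose from 42.5 ± 2.88 CPM to 75.1 ± 3.72 and 78.3 ± 4.06 CPM (SD, n = 4), 1.77-fold and 1.84-fold (edgeR adjusted p 2.03e-09 and 6.46e-10). Another gene's span covers 31.1% of Car9 exon sequence.

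Vegfa, the main growth factor for blood vessels, rose modestly and with little spread. It was at 155, 142, 158 and 159 CPM in Control, at 206, 204, 209 and 205 CPM in WT, and at 229, 212, 210 and 211 CPM in SIRT5F101L. The log2 fold change was 0.42 in WT (SE 0.05, edgeR adjusted p 1.56e-06) and 0.49 in SIRT5F101L libraries (SE 0.05, edgeR adjusted p 2.21e-07). The lowest SIRT5F101L library (209.7 CPM) lay just above the highest WT library (209.1 CPM). Groups did not overlap for 4.02% of all genes tested in that comparison. The log2 difference between the plasmids was 0.06 (SE 0.05, edgeR adjusted p 0.638), which did not pass, and 0.03 without SIRT5F101L replicate 1.

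Ddit4 encodes REDD1, an inhibitor of mTORC1 that is induced by hypoxia and other stresses. It was at 72.9, 69.1, 78.5 and 64.7 CPM in Control, at 84.1, 102, 99.1 and 92.5 CPM in WT, and at 109, 64.0, 78.1 and 81.8 CPM in SIRT5F101L. The WT libraries lay above Control, while the SIRT5F101L libraries spread on both sides of the Control range, with the highest value in replicate 1 and the lowest in replicate 2.

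Ddit4 rose 1.32-fold in WT (log2 fold change 0.40, SE 0.11, edgeR adjusted p 0.00476). In SIRT5F101L libraries its log2 fold change of 0.22 (SE 0.11) did not pass (edgeR adjusted p 0.0937), but it reached 0.33 (edgeR adjusted p 0.0101) without SIRT5F101L replicate 2 and 0.07 without SIRT5F101L replicate 1. It also passed with no expression filter (0.22, edgeR adjusted p 0.0119) and with a correction for transcript length (0.36, edgeR adjusted p 0.00141). Between the plasmids the log2 difference was -0.18 (edgeR adjusted p 0.516), and -0.33 (edgeR adjusted p 0.00404) without SIRT5F101L replicate 1. Ddit4 was the single gene of the 8 whose comparison between the plasmids passed in any alternative fit.

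Bnip3, a receptor that marks mitochondria for mitophagy, was at 88.5, 96.9, 85.3 and 77.7 CPM in Control, at 103, 109, 97.6 and 101 CPM in WT, and at 113, 121, 92.0 and 85.8 CPM in SIRT5F101L. WT libraries lay above all Control libraries by a narrow margin, and SIRT5F101L libraries overlapped Control. The log2 fold change was 0.23 in WT (SE 0.09, edgeR adjusted p 0.0355) and 0.24 in SIRT5F101L libraries (SE 0.09, edgeR adjusted p 0.0308). Both calls were frail, with 7 and 5 of 15 alternative fits losing them. The call in WT was lost without Control replicate 1, 3 or 4 or WT replicate 1, 2 or 4, with an edgeR adjusted p of up to 0.129 (without Control replicate 4). The call in SIRT5F101L libraries was lost without Control replicate 1, 3 or 4 or SIRT5F101L replicate 2 (0.16, edgeR adjusted p 0.148).

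The paralog Bnip3l (NIX) rose more, from 185 ± 7.99 CPM to 276 ± 9.06 in WT and 288 ± 14.96 in SIRT5F101L libraries (SD, n = 4; log2 fold changes 0.58 and 0.64, SE 0.06 for each, edgeR adjusted p 3.38e-08 and 7.45e-09). The ratio of Bnip3 to Bnip3l counts within each library does not depend on library scaling. It was 0.478, 0.506, 0.448 and 0.447 in Control, 0.375, 0.394, 0.367 and 0.350 in WT, and 0.381, 0.400, 0.322 and 0.320 in SIRT5F101L. All plasmid libraries lay below all Control libraries. The difference in log2 ratio from Control was -0.34 in WT and -0.41 in SIRT5F101L libraries (exact 2-sided permutation p 0.0286 for each, the smallest that 70 arrangements allow, and 0.0429 adjusted over 3 comparisons). Between the plasmids it differed by -0.07 (exact permutation p 0.486).

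Ankrd37, an ankyrin-repeat gene induced by HIF-1, was the least counted of the 8, with 34 to 70 counts a library. It stood at 2.09, 2.13, 2.02 and 2.73 CPM in Control, at 2.76, 2.25, 3.29 and 2.47 CPM in WT, and at 2.62, 2.66, 2.81 and 1.93 CPM in SIRT5F101L. All 3 groups overlapped. The log2 fold change was 0.26 in WT (SE 0.21, edgeR adjusted p 0.290) and 0.16 in SIRT5F101L libraries (SE 0.21, edgeR adjusted p 0.517), neither of which passed, and no difference was detectable at this depth.

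Set against Control by overlap alone, groups did not overlap for 53.5% of all genes tested in WT and for 51.3% in SIRT5F101L libraries. Of the 8 genes, all but Ankrd37 had WT libraries wholly outside the Control range. In SIRT5F101L libraries Ankrd37, Bnip3 and Ddit4 overlapped Control and the others did not.

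Per kilobase of exon sequence, Egln1 was the most abundant in Control, at 45.3 ± 0.244 CPM per kb (SD, n = 4). Ddit4 (40.6 ± 3.32), Bnip3 (38.5 ± 3.50) and Vegfa (35.8 ± 1.81) followed, with overlapping ranges. Epas1 (10.1 ± 0.818) and Egln3 (6.05 ± 0.687) were next, and Ankrd37 (1.46 ± 0.213) and Car12 (1.19 ± 0.249) were lowest and overlapped. In the plasmid groups the order of the lower genes was different: Egln3 (10.4 ± 1.04 in WT and 12.3 ± 0.466 in SIRT5F101L) and Car12 (5.21 ± 0.234 and 5.52 ± 0.352) had higher mean levels per kb than Epas1 (4.92 ± 0.281 and 5.28 ± 0.813). Car12 and Epas1 did not differ beyond their spread in either plasmid group. Per-length levels of Bnip3 and Ankrd37 are uncertain because of the shared exon sequence.

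The wider pathway was followed in 4 further lists. The list of HIF subunits, hydroxylases, VHL complex and coactivators has 18 genes, of which 16 were tested. In WT 4 rose and 5 fell, and in SIRT5F101L libraries 5 rose and 7 fell. The SIRT5F101L counts were 6 and 8 without SIRT5F101L replicate 1. They were 4 and 6 without Control replicate 1 or without SIRT5F101L replicate 2, 3 or 4. Of all genes tested 28.7% rose and 28.1% fell in WT and 30.0% and 30.7% in SIRT5F101L libraries, so the 9 of 16 called in WT are near the background of 56.8% and are no result about the list. Besides Egln1, Egln3 and Vhl, the coactivator Ep300 rose (log2 fold change 0.42 in SIRT5F101L libraries). Arnt2, a paralog of Arnt, fell from 23.3 ± 1.48 CPM to 7.95 ± 1.46 in WT and 9.36 ± 0.868 in SIRT5F101L libraries (log2 fold changes -1.56 and -1.31, edgeR adjusted p 8.06e-10 and 7.65e-09). Siah2, a ubiquitin ligase that acts on the prolyl hydroxylases, fell by 0.61 and by 0.58 on the log2 scale. The list's median was -0.03 in WT and -0.14 in SIRT5F101L libraries, and neither was stable. In WT it was just below 0 without Control replicate 3, -0.02 without Control replicate 1, -0.05 without WT replicate 2, -0.06 without Control replicate 4 and -0.08 with upper-quartile scaling. In SIRT5F101L libraries it was -0.09 without Control replicate 3.

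Of 20 glycolytic targets 19 were tested. The other, Pgk1, lies on the X chromosome and was listed at 0 like every ID of that chromosome. That 0 does not say that it was not expressed. In WT 16 rose and 2 fell, with a median log2 fold change of 0.58, and in SIRT5F101L libraries 15 rose and 2 fell, with a median of 0.53, or 16 and 2 without SIRT5F101L replicate 1. The shares over all genes were 28.7% higher and 28.1% lower in WT and 30.0% and 30.7% in SIRT5F101L libraries. The largest rises were those of Hk2 (1.44 and 1.46), which traps glucose in the cell, the glucose transporter Slc2a1 (1.16 and 1.24) and Hk1 (1.11 and 1.10). Other genes' spans cover 61.3% of Slc2a1 exon sequence, so its size is uncertain. The isoenzyme gene Aldoc fell (-0.21 and -0.32), and so did the transporter gene Slc2a3 (-0.88 and -0.72), which was at 3.25 ± 0.617 CPM in Control. The smallest rises by the rule for named genes were those of the phosphofructokinase gene Pfkl (0.34 and 0.29), of Pfkfb4 in WT (0.31, not past the threshold without WT replicate 2, edgeR adjusted p 0.0507) and of the triose phosphate isomerase gene Tpi1 in SIRT5F101L libraries (0.27). Slc2a3 and Aldoc were the 2 that fell in both groups, and Slc2a3 is named here after its value was seen. The fall of Aldoc in WT lost its call with the length correction and without Control replicate 2 or 3 or WT replicate 3 or 4. In those fits its log2 fold change was -0.16 to -0.20 (edgeR adjusted p up to 0.0733), against -0.21 in the main fit.

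**Figure D4:**
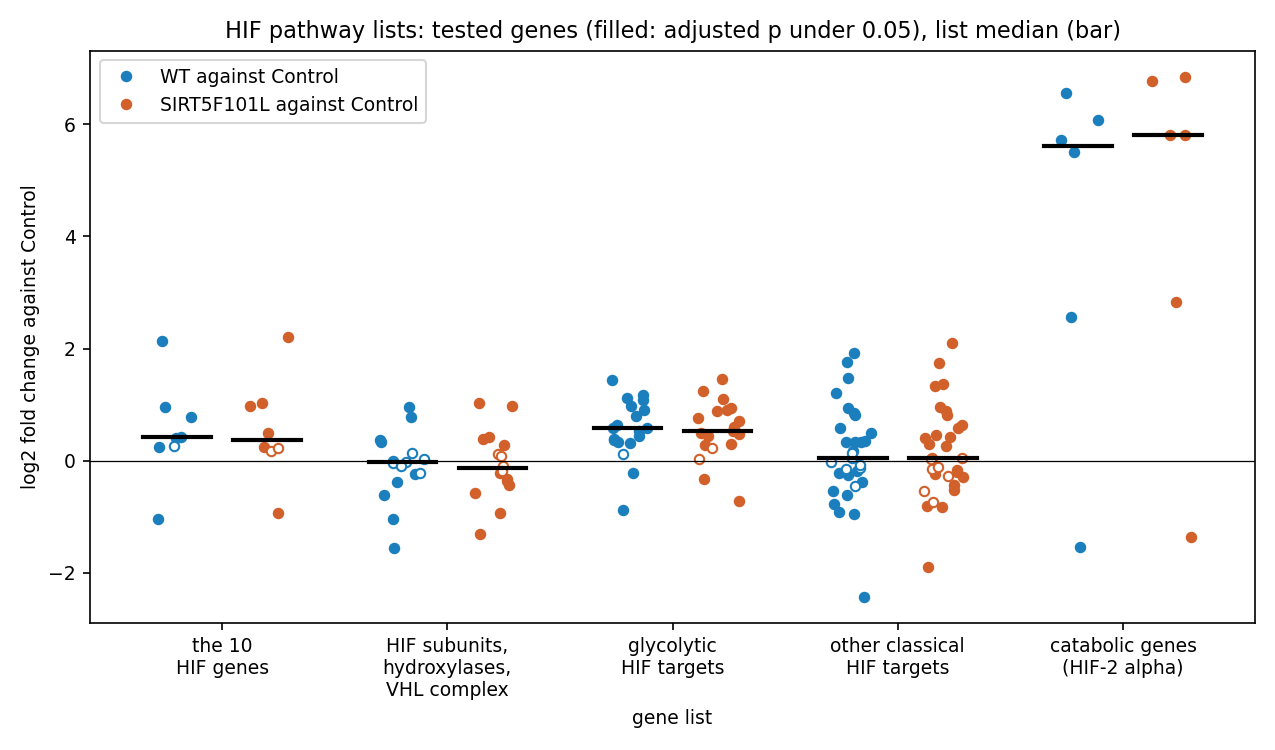
Log2 fold change against Control (y axis) of each tested gene in 5 lists (x axis), in WT (blue) and SIRT5F101L libraries (orange). Filled points passed edgeR's test and bars are list medians (that of the catabolic genes includes Nos2), which lie at 0.58 and 0.53 for glycolytic targets and near 0 for HIF subunits and other classical targets.

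The other classical targets went in both directions. All 31 were tested, and 14 rose and 10 fell in WT (median log2 fold change 0.05), while 14 rose and 9 fell in SIRT5F101L libraries (median 0.04), or 14 and 10 without SIRT5F101L replicate 1. Over all genes 28.7% rose and 28.1% fell in WT, and 30.0% and 30.7% in SIRT5F101L libraries. The list's median was not stable: in WT it was 0.18 without WT replicate 1, 0.13 without Control replicate 3 and just below 0 without WT replicate 4. With a filter at a mean of 1 CPM, which left 27 genes, it was 0.17 in WT and 0.27 in SIRT5F101L libraries, and with upper-quartile scaling both medians were just below 0. Pdgfb, 1 of those that fell in each group, passed the expression filter only through Control, where it is high, so its fall was fixed by the filter and supports nothing. Angptl4, an inhibitor of lipoprotein lipase, rose most (1.93 and 2.10), from 18.6 ± 1.40 CPM to 70.7 ± 5.76 in WT and 79.6 ± 12.6 in SIRT5F101L libraries. The transferrin receptor gene Tfrc (1.77 and 1.74) followed. On the other side, Lox, which cross-links collagen, fell from 7847 ± 281 CPM to 4054 ± 182 and 4440 ± 437 CPM (-0.95 and -0.82), and P4ha1, a subunit of collagen prolyl 4-hydroxylase, fell by 0.61 and by 0.53 on the log2 scale. Narf fell too (-0.78 and -0.82). Cited2, a competitor of HIF-1 alpha for its coactivators that stands in this list and in that of subunits and coactivators, fell by 0.39 and by 0.44 on the log2 scale, and is named after its values were seen.

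The last list holds 8 catabolic genes that have been described as HIF-2 alpha targets in cartilage. Of these, Col10a1 was listed at 0, Mmp9 had too few counts, and 6 were tested. Nos2 passed the filter only through the plasmid groups, where it is high, so its rise was fixed by the filter and is not counted. Of the other 5, 4 rose in each plasmid group while 1, Adamts4, fell (log2 fold changes -1.53 and -1.37), a gene named after its values were seen. Of all genes, 28.7% rose and 28.1% fell in WT and 30.0% and 30.7% in SIRT5F101L libraries. Mmp3 (6.55 and 6.85), Ptgs2 (5.71 and 5.81), Il6 (5.50 and 5.82) and Mmp13 (2.56 and 2.82) rose in the same libraries in which Epas1 fell. Nos2, the inducible nitric oxide synthase, was between 0.00 and 0.692 CPM in Control, between 14.8 and 18.0 CPM in WT and between 23.8 and 31.2 CPM in SIRT5F101L libraries. These genes are also induced by inflammatory signals, and the part of HIF-2 alpha in their rise was not tested.

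Between the plasmids 0 genes of each of the 4 lists passed edgeR's test. Without SIRT5F101L replicate 1, 1 of the 8 HIF genes, 8 of 16 subunit and coactivator genes and 3 of 19 glycolytic genes passed. So did 7 of 31 other targets and 4 of 6 catabolic genes, where 2213 of all 14528 genes tested in that fit did.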

How the data were processed

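Poly(A)-selected RNA of 12 libraries was sequenced as paired 150 bp reads, per the labels' protocols. The deposited files hold raw counts per Ensembl gene ID, 1 file a library. The submitters' processing notes name FastQC 0.11.9, HISAT2 2.2.1, HTSeq 2.0.2 and DESeq2 1.38.3 and the build GRCm39, and the annotation release and strand setting are not given in the sources used here. Symbols were found for 52029 of 57010 IDs, and exon lengths (GENCODE M21) for 52081.

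Counts were scaled by TMM and filtered by filterByExpr in edgeR 4.0.16 (R 4.3.3). The quasi-likelihood test was fitted over all 12 libraries with 1 mean a group (9 residual degrees of freedom), and p-values were adjusted by Benjamini-Hochberg over 14253 genes, with genes called under 0.05. On simulated data for 13624 genes, 83.4% of 193 genes changed 2-fold were recovered for WT against Control and 82.9% for SIRT5F101L against Control. Of the genes called there, 5.29% and 4.76% were false. Only 200 genes were changed in the simulation, whereas 56.8% and 60.7% of all genes were called in the data. Scaling under so wide a change was therefore not tested. The ratio of Bnip3 to Bnip3l was compared by an exact permutation test. Replicates were numbered in accession order and pair nothing. Alternatives were DESeq2 1.42.0, other scalings and filters, a fit of 8 libraries, a correction for transcript length and leaving out each library.

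The genes and lists were chosen with earlier results of these data known. Named were the 10 genes, Sirt5, 7 partners and paralogs (Hif3a, Arnt, Vhl, Hif1an, Egln2, Bnip3l and Car9), up to 3 called genes at each end of each further list with a mean of at least 5 CPM, and the 3 genes most like Epas1. One gene that this rule names is not reported here. Marker lists for chondrocytes, macrophages and leukocytes, endothelium, osteoblasts, and fibroblasts and perivascular cells were summed as CPM.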

Additional observations from a re-analysis of the deposited data

Results flagged for a closer look

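Dixon's criterion for 4 libraries (the gap to the nearest library over the whole range) was applied to 27 sets of 4 values, and 2 passed it, where chance gives 1.35. Vegfa was at 229 CPM in SIRT5F101L replicate 1 and at 210 to 212 CPM in the other 3 libraries of that group (ratio 0.901). Ankrd37 was at 2.73 CPM in Control replicate 4 and at 2.02 to 2.13 CPM in the other Control libraries (ratio 0.851).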

How the results depend on the processing

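Against Control, Epas1, Egln1, Egln3, Vegfa and Car12 kept their direction and passed in all 15 alternatives of each comparison, as did Ddit4 in WT. Bnip3 lost its call with upper-quartile scaling (0.18, edgeR adjusted p 0.0924 in WT; 0.19, 0.0738 in SIRT5F101L) and when some single libraries were left out (0.18 to 0.24 in WT and 0.16 to 0.24 in SIRT5F101L where the call was lost). Genes called between the plasmids numbered 44 with DESeq2, 2 in the fit of 8 libraries, 354 with no filter, 16 with the length correction and 0 to 2213 with 1 library left out, against 6 (1701 at an unadjusted p under 0.05). The 2213 came without SIRT5F101L replicate 1, and leaving out any other SIRT5F101L or WT library gave 0 (Control libraries were not left out for it). In that comparison other classical targets gave 1 with DESeq2, 2 with no filter and 0 to 7 with 1 library left out. Catabolic genes gave 4, 1, 4 and 2 with DESeq2, 8 libraries, no filter and the length correction, and 0 to 4 with 1 library left out. With 1 library left out, the HIF genes gave 0 to 1, subunits and coactivators 0 to 8 and glycolytic genes 0 to 3. The cause was not tested. No paired analysis was possible because replicate numbers follow accession order only. The ratio of Epas1 to Hif1a was not run, since Hif1a was listed at 0. Low counts limit Ankrd37 and Sirt5, and left Hif3a and Mmp9 untested.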
